A study of Mus musculus with 16 samples.

Results

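The splicing factor and hnRNP genes described here are the rows of the deposited count table whose symbol begins with Srsf and a digit, with Hnrnp, with Sf3a or Sf3b and a digit, or with Snrp. They number 49 of 23479 genes. There were 18 hnRNP genes, 12 snRNP genes, 11 SR protein genes and 8 genes of the SF3a and SF3b complexes. Of the 49, 48 had enough counts to be tested, and the exception was Snrpn. Hnrpll and Hnrpdl, which RefSeq lists as older symbols of 2 hnRNP genes (Hnrnpll and Hnrnpdl), do not match the pattern and are given with the related genes.

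Introns are removed from pre-mRNA by the spliceosome, which is built from small nuclear ribonucleoproteins (snRNPs), each a small RNA held by a ring of Sm proteins together with proteins of its own. The U2 snRNP, with its SF3a and SF3b complexes, marks the branch site of the intron. SR proteins and heterogeneous nuclear ribonucleoproteins (hnRNPs) bind the RNA around it and tip the choice of exons, often in opposite directions. In T cells this choice is known to change on activation, the CD45 exons being the textbook case, and hnRNP L and hnRNP LL are known regulators of those exons.

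RNA was sequenced from CD4 T cells that were taken from the spleens of C57BL/6 mice by immunomagnetic negative selection, in which the other cells are removed. The controls (5 libraries, labelled day 0) carried no tumour, and the mice at day 7 (7 libraries) and day 14 (4 libraries) had been given Eµ-Myc lymphoma cells by transplant. Eµ-Myc is a B cell lymphoma model in which Myc is driven by the immunoglobulin heavy chain enhancer, so that the tumour arises in B cells and the T cells studied are those of the host. The labels give neither the age of the mice nor how many lymphomas the transplanted cells came from. The design text counts mice and each library was taken as 1 mouse. Nothing else in the labels says how replicates were separated, so p-values measure the spread between these libraries.

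Gene counts per library were 21610411 to 27340070 in controls, 14493764 to 24916411 at day 7 and 14731908 to 17067236 at day 14, so every day 14 library was shallower than every control. TMM factors averaged 0.954 ± 0.026 in controls, 0.982 ± 0.037 at day 7 and 1.10 ± 0.086 at day 14, so both moved with the group, and their part in the results was not tested. The 6 CD4 T cell markers checked (Cd3d, Cd3e, Cd3g, Cd4, Cd5 and Cd28) together held 2482 to 5432 CPM (counts scaled to library size) in every library, and the 2 CD8 chains 5.68 to 17.6 CPM. Control libraries 1 and 2 stood apart. The 8 neutrophil markers summed to 785 and 2156 CPM in them and to at most 47.3 CPM in the other controls. The 8 markers of dividing cells summed to 1732 and 3978 CPM against at most 466 CPM. Macrophage and monocyte markers summed to 210 and 563 CPM against at most 44.7 CPM, and erythroid markers to 112 and 379 CPM against at most 12.9 CPM. In day 14 library 4 the neutrophil markers summed to 1554 CPM, mostly through Mpo (1226 CPM), Prtn3 (176 CPM) and Elane (146 CPM). There S100a8, S100a9, Ngp, Camp and Ltf held only 2.96, 0.79, 0.91, 0.18 and 0.36 CPM. Macrophage and monocyte markers summed to 93.9 CPM in day 14 library 4. The 4 day 14 libraries held 365 to 1884 CPM of dividing cell markers. B cell markers summed to 14.5 to 76.8 CPM in controls, 16.4 to 33.0 at day 7 and 18.8 to 42.8 at day 14. Reads outside gene models made up 47.1% to 56.7% in controls, 54.6% to 68.0% at day 7 and 54.4% to 69.8% at day 14. Reads without a unique alignment made up 8.74% to 10.1% in controls, 6.88% to 7.91% at day 7 and 6.67% to 7.94% at day 14. Every control was thus above every other library in this share, and its part in the results was not tested.

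At day 14 most members had lower group means than in controls, and in 43 of 48 the libraries of the 2 groups overlapped. The log2 change against control was negative for 45 of the 48 tested members, and their median was -0.31. Over all 18430 genes tested 42.3% of changes were negative and the median was 0.12. Only 1 member, Hnrnpc, passed the test and was lower (edgeR, adjusted p below 0.05), and none was higher. Over all genes 3.13% passed, 1.8% as lower and 1.33% as higher, so the count of 1 in 48 is near that background. At an unadjusted p below 0.05, 25 members (52.1%) were lower and 0 higher, where 11.8% of all genes were lower. All 48 members, but only 11018 of the 18430 genes, had at least 10 counts in every library. Such shares, here and below, are therefore not of genes at like levels. In bulk libraries a smaller share of cells of one kind and less RNA per cell cannot be told apart.

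At day 7 none of the 48 members passed against control in either direction, and over all genes 0.0109% did, all of them higher. At an unadjusted p below 0.05, 3 members were higher and 19 lower, where 8.43% and 12.7% of all genes were. Between day 14 and day 7, 1 member (Srsf7) passed as lower and 0 as higher, beside 0.966% of all genes in either direction, 0.553% lower and 0.412% higher. At an unadjusted p below 0.05, 9 members were lower and 0 higher, where 8.27% and 6.54% of all genes were. The median over members was -0.23 for day 7 against control and -0.08 for day 14 against day 7, and over all genes 0.07 and 0.12. The comparisons of day 14 and day 7 with control share the control libraries and are not independent.

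How far below depends on the scaling. The medians above use TMM scaling. When libraries were scaled by their totals alone, the median over all genes at day 14 moved to 0.32, and 33 of the 48 members were negative. With RLE scaling it was 0.18 with 44 negative. Relative to the median of all genes, 47 members were lower at day 14 under each of these scalings. For day 14 against day 7, 37, 35 and 15 members were negative with TMM, RLE and totals, and 47 lay below the all-gene median in each. These counts of 47 could hardly differ, since a change of scaling moves all genes by nearly the same amount. They are therefore no check on the scaling. Calls over all genes at day 14 against control divided into 246 higher and 331 lower with TMM, 289 and 250 with RLE, and 699 and 100 with totals. Against day 7 they divided into 76 and 102, 87 and 72, and 150 and 41. When genes were limited to those with at least 10 counts in every library, the all-gene median at day 14 against control was -0.01. The member median was -0.21, and 41 members lay below the all-gene median. For day 14 against day 7 this filter brought the medians close together, at 0.005 over all genes and -0.018 over members. There 28 members were negative and 30 of 48 lay below the all-gene median. That count was 34 without day 14 library 1, and 34 with the share of reads outside gene models as a covariate. In the other alternatives it lay between 43 and 48.

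**Figure D1:**
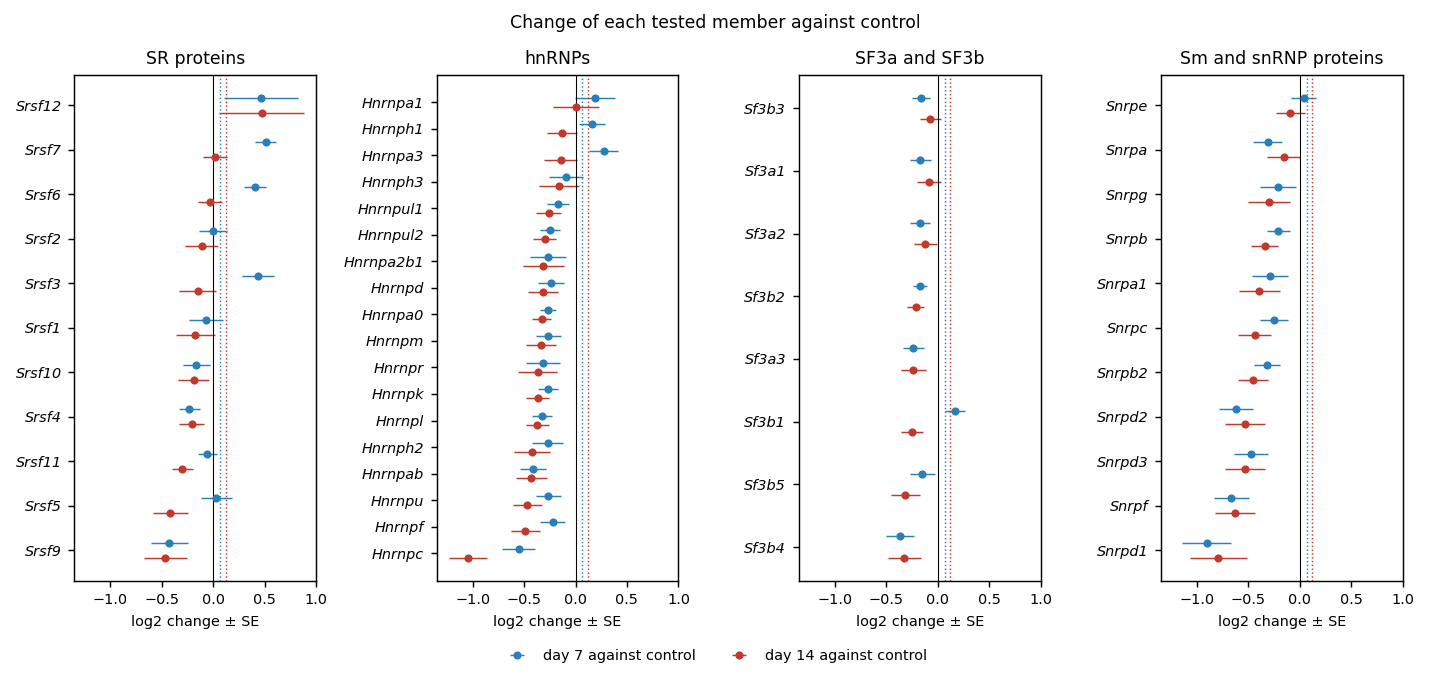
Log2 change against control (x axis, ± SE) of the 48 tested members in 4 panels by family, at day 7 (blue) and day 14 (red), with dotted lines at the median of all genes. At day 14, 45 of the 48 points lie left of 0, while in the SR protein panel the day 7 points of Srsf7, Srsf3 and Srsf6 lie to the right, at 0.51, 0.43 and 0.41.

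Where the highest mean lay varied by family. The mean over control libraries was the highest of the 3 group means for 15 of 18 hnRNPs, 7 of 8 SF3 genes, 10 of the 11 tested snRNP genes and 6 of 11 SR proteins, and for 4 of the SR proteins the highest mean was that of day 7. At day 14 against control the median log2 change was -0.33 over hnRNPs (17 of 18 negative), -0.22 over SF3 genes (8 of 8), -0.44 over snRNP genes (11 of 11) and -0.17 over SR proteins (9 of 11). At day 7 against control it was -0.26, -0.17, -0.31 and -0.0039 in the same order. These medians are descriptions and the families were not tested against each other.

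Levels differed far more between members than between groups. Per kilobase of exon, controls held 317 CPM of Hnrnpa2b1, 282 of Srsf5, 208 of Snrpf, 191 of Hnrnpab, 150 of Hnrnpu and 119 of Hnrnph1. At the other end stood Sf3b5 at 7.4, Snrpd2 at 5.79, Snrpc at 3.83 and Srsf12 at 1.27 CPM per kilobase. The members lie on 18 chromosomes, and the 6 on chromosome 7 are the most on any. In the GENCODE M21 annotation of GRCm38 the exons of 23 members overlap another gene. The overlap exceeds 20% of exon length for 6, namely Snrpf, Snrpn, Srsf4, Hnrnpab, Hnrnpf and Srsf2. For Snrpf it is 85.4%, with Ccdc38 and 4933408J17Rik on the other strand. Overlaps with more than 1 neighbour were added, so such a share is an upper limit. Whether counting used the strand is not given in the sources used here, so values of these 6 could include reads of a neighbour or miss shared ones.

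Among the hnRNPs, Hnrnpc carried the change that passed at day 14. It encodes hnRNP C, a core protein of the particles on nascent transcripts that binds runs of uridine and is known, from human cells, to keep the splicing machinery off cryptic sites in introns. The gene lies on chromosome 14 from 52073377 to 52104028 on the minus strand (GRCm38). The day 14 libraries held 152, 248, 176 and 211 CPM of Hnrnpc and the controls 374, 630, 352, 377 and 297 CPM. Every day 14 library was below every control. That holds for 5 members (Hnrnpc, Hnrnpa0, Hnrnpl, Sf3b2 and Sf3b5) and for 2.85% of all genes, and the opposite for 0 members and 5.24% of all genes. Hnrnpc fell by 1.04 on the log2 scale (SE 0.19, edgeR adjusted p = 0.0102), a level 0.485 times that of controls.

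The day 7 libraries stood between, with Hnrnpc at 230 CPM in the lowest, 268 in the median and 344 in the highest library. Group means of Hnrnpc were 406 ± 129 CPM in controls, 277 ± 35.9 at day 7 and 197 ± 41.7 at day 14 (SD, n = 5, 7 and 4). Day 7 overlapped both other groups. Its differences did not pass, with a log2 change of -0.55 against control (adjusted p = 0.0805) and of -0.49 for day 14 against day 7 (adjusted p = 0.179).

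Control library 2, the one with most neutrophil and dividing cell transcripts, was also the one with the 630 CPM of Hnrnpc. Without control libraries 1 and 2 the log2 change of Hnrnpc at day 14 was -0.80 and still passed (adjusted p = 0.0122). Without day 14 library 3 it was -0.996 and missed the threshold (adjusted p = 0.0532), as it did when only the 2 groups entered the fit (-1.03, adjusted p = 0.0771). With the share of reads outside gene models as a covariate it was -0.93 with an adjusted p of 0.388, and in that fit 0 of all genes passed as lower. The share was 63.2 ± 6.60% at day 14 and 51.1 ± 3.65% in controls, so share and group can only partly be separated.

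The window before the start of Hnrnpc is shown because Hnrnpc is the member that passed at day 14. It holds 4 copies of CCAAT, the box bound by NF-Y, in capitals (3 as CCAAT and 1 as ATTGG on the printed strand). The sequence is from RefSeq on GRCm38.p6, chr14:52104022-52104271, minus strand, 250 bases before the start.
Hnrnpc: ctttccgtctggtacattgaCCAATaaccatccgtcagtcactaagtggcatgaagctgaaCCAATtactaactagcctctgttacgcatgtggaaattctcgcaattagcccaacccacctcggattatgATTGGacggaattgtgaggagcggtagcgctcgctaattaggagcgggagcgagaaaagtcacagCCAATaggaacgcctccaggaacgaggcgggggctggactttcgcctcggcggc
The count of CCAAT boxes is a description of these letters and not evidence of binding.

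Hnrnpf, Hnrnpu, Hnrnpa0, Hnrnpl and Hnrnpk came next among the hnRNPs by p at day 14, and none passed. Hnrnpf, a binder of guanine runs, stood at 153 ± 33.8 CPM at day 14 and 214 ± 18.3 in controls (log2 change -0.49, edgeR adjusted p = 0.0577), and its exons overlap opposite-strand genes. Hnrnpa0, a member of the A/B family that also binds AU-rich elements, was at 198, 249, 201 and 195 CPM at day 14 and 285, 273, 249, 264 and 252 CPM in controls (log2 change -0.33, adjusted p = 0.0581). The day 14 values of Hnrnpa0 all lay below the controls, although day 14 library 2 at 249.0 CPM lay next to the lowest control at 249.1 CPM. At day 7, too, every library was lower than every control for Hnrnpa0, which holds for 0.982% of all genes, with 203 CPM in the lowest, 225 in the median and 245 in the highest library (log2 change -0.27, adjusted p = 0.0838).

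Hnrnpl encodes the regulator of CD45 exons named above. Its day 14 libraries held 431, 464, 352 and 446 CPM and its controls 554, 622, 543, 539 and 475 CPM. Again no day 14 library reached a control, and the log2 change of -0.37 did not pass (edgeR adjusted p = 0.0692). At day 7 Hnrnpl ranged from 381 to 495 CPM with a median of 453, overlapping the lowest control (log2 change -0.32, adjusted p = 0.0818). Hnrnpll, its paralog in CD45 splicing, is listed under Hnrpll and stood at 48.6 ± 12.1 CPM at day 14 and 42.6 ± 11.4 in controls.

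Hnrnpu, a nuclear scaffold protein that binds RNA and chromatin, averaged 1253 ± 270 CPM at day 14 and 1736 ± 224 in controls (log2 change -0.47, adjusted p = 0.0678). Hnrnpk, a KH domain protein that binds cytosine runs, averaged 401 ± 61.7 CPM at day 14 and 517 ± 52 in controls (log2 change -0.37, adjusted p = 0.0760). For both, day 14 library 2 reached into the control range and library 1 was the lowest of all 16. Hnrnpab was at 394 ± 70.9 CPM at day 14 and 531 ± 123 in controls (log2 change -0.43, adjusted p = 0.105). Hnrnpd, known as AUF1 for its binding of AU-rich mRNAs, had 614 ± 88.2 and 764 ± 186 CPM (log2 change -0.31, adjusted p = 0.212). Hnrnpa2b1, the most abundant member, held 1030, 2295, 1690 and 1703 CPM at day 14 and 1398 to 3004 CPM in controls, so that only day 14 library 1 lay below the controls and only control library 2 above day 14 (log2 change -0.31, adjusted p = 0.359).

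Hnrnpa1, Hnrnph1 and Hnrnpa3 had their highest group means at day 7, and none passed. Hnrnpa1, the A-type hnRNP known as an antagonist of SR proteins, averaged 26.6 ± 9.94 CPM in controls, 30.3 ± 4.87 at day 7 and 26.6 ± 4.95 at day 14. Near-identical processed copies of Hnrnpa1 exist in mammalian genomes, so its count is uncertain. Hnrnph1, a guanine-run binder, was at 693 ± 132 CPM in controls, 776 ± 121 at day 7 and 632 ± 36.4 at day 14. Hnrnpa3 was at 60.6 ± 5.62 CPM in controls, 73.2 ± 16.4 at day 7 and 54.9 ± 5.45 at day 14, and day 7 libraries 6 and 7 were the lowest of their group at 53.2 and 49.5 CPM. The log2 change of Hnrnpa3 for day 14 against day 7 was -0.42 (adjusted p = 0.188).

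Snrpd1, Snrpf, Snrpd2 and Snrpd3, which encode proteins of the Sm ring, had lower means than controls at day 7 as well as at day 14, and none of their differences passed the test. Snrpd1, which encodes SmD1, held 68.7, 162, 103 and 164 CPM at day 14 and 260, 343, 228, 142 and 108 CPM in controls. The groups overlapped through control libraries 4 and 5 (log2 change -0.80, SE 0.28, edgeR adjusted p = 0.109). At day 7 Snrpd1 ran from 93.7 to 133 CPM with a median of 118, inside a far narrower band than the controls (log2 change -0.91, SE 0.24, adjusted p = 0.0777). The 3 controls above 200 CPM include libraries 1 and 2, which stand apart by their markers, but also library 3, which does not.

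Snrpf, which encodes SmF, was at 70.1, 149, 101 and 142 CPM at day 14 and 197, 206, 204, 156 and 131 CPM in controls (log2 change -0.63, adjusted p = 0.0788). Its day 7 libraries held 83.8 CPM in the lowest, 113 in the median and 146 in the highest (log2 change -0.67, adjusted p = 0.0777). The Snrpf values come with the exon overlap given above. Snrpd2 (SmD2) was a gene of few counts, at 15.2 ± 2.22 CPM in controls, 9.85 ± 1.25 at day 7 and 10.5 ± 2.78 at day 14. Each day 7 library of Snrpd2 lay below each control (log2 change -0.62, adjusted p = 0.0777). Snrpd3 (SmD3) averaged 140 ± 22.3 CPM in controls, 100.3 ± 9.92 at day 7 and 96.3 ± 40.9 at day 14. Snrpe (SmE), of the same ring, did not differ by more than its spread, at 22.9 ± 3.29 CPM in controls, 23.4 ± 2.62 at day 7 and 21.4 ± 2.08 at day 14. Snrpg (SmG) was at 24.7 ± 4.64 CPM in controls, 21.4 ± 3.14 at day 7 and 20.1 ± 6.75 at day 14.

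Snrpb, which encodes the SmB and SmB' proteins, averaged 66.7 ± 16.1 CPM at day 14 and 84.7 ± 7.43 in controls (log2 change -0.34, adjusted p = 0.141). Snrpn encodes the related SmN, which takes its place in neurons. It had 23 counts in all 16 libraries together and 0 in every control, and Snurf, whose exons share its strand and position, was listed at 0 in every library. Among genes for proteins of single snRNPs, means at day 14 were also below those of controls. Snrpb2, the U2 protein B'', was at 39.7 ± 10.2 CPM at day 14 and 54.5 ± 4.77 in controls (log2 change -0.46, adjusted p = 0.0860). Snrpa1, another U2 protein, had 52.4 ± 14.8 and 68.8 ± 21.8 CPM. Of the U1 proteins, Snrpc was at 18.4 ± 3.42 CPM at day 14 and 25 ± 4.49 in controls, and Snrpa at 38.6 ± 7.6 and 43 ± 7.99 CPM.

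**Figure D2:**
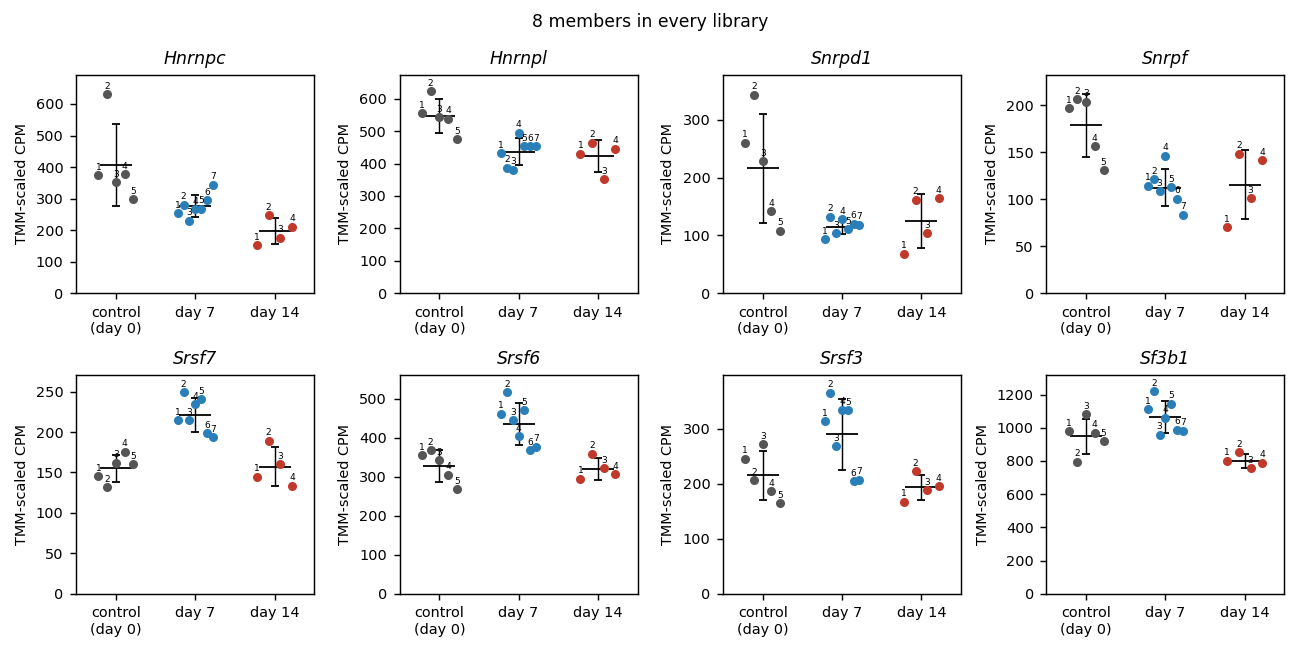
TMM-scaled CPM (y axis, from 0) of 8 members in each library, with the replicate number above each point and the group mean ± SD in black, from control (day 0) through day 7 to day 14. Hnrnpc steps down over the groups, Snrpd1 and Snrpf sit low at both times, and Srsf7, Srsf6 and Srsf3 are high at day 7, with Srsf7 at 194 to 250 CPM there.

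In the SF3a and SF3b complexes, the parts of the U2 snRNP that hold the branch site, all 8 log2 changes at day 14 against control were negative, and none passed. The difference closest to the threshold was that of Sf3b1 for day 14 against day 7. Sf3b1, whose product clamps the branch site helix and is a frequent target of mutation in blood cancers, held 800, 852, 755 and 789 CPM at day 14 and 1112, 1221, 959, 1061, 1144, 989 and 984 CPM at day 7. Every day 14 library lay below every day 7 library, which holds for 2.78% of all genes, and the log2 change of -0.42 (SE 0.10) did not pass (edgeR adjusted p = 0.0620). Against control, at 949 ± 105 CPM, the log2 change of Sf3b1 was -0.25 (adjusted p = 0.191).

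Sf3b2, an SF3b protein that contacts the RNA near the branch site, was at 355, 357, 377, 346 and 352 CPM in controls, 303 to 338 CPM at day 7 and 283, 337, 297 and 315 CPM at day 14. Each library of either time after transplant was below each control, but the log2 change at day 14 was -0.21 with an adjusted p of 0.136. Sf3b5, the smallest SF3b protein, also had its 4 day 14 libraries (20.7 to 24.1 CPM) under its controls (24.3 to 34.2 CPM), with a log2 change of -0.31 (adjusted p = 0.195). Sf3a1, Sf3a2, Sf3a3 and Sf3b3 had day 14 means of 119, 114, 70.7 and 212 CPM beside control means of 126, 124, 83.2 and 223 CPM, and Sf3b4 37.3 ± 7.13 beside 46.7 ± 9.7 CPM.

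Among the SR proteins, Srsf7, Srsf6 and Srsf3 had their highest levels at day 7. Srsf7, which contains a zinc knuckle and couples splicing to export of mRNA, held 145, 132, 162, 176 and 160 CPM in controls. Its day 7 libraries held 194 CPM in the lowest, 215 in the median and 250 in the highest, and its day 14 libraries 145, 189, 160 and 134 CPM. Day 7 thus lay clear of both other groups. Day 14 was lower than day 7 by 0.49 on the log2 scale (SE 0.11, edgeR adjusted p = 0.0396), 0.711 times the day 7 level. Against control the day 7 level was 1.42 times as high (log2 change 0.51, SE 0.10), and this missed the threshold (adjusted p = 0.0709), while day 14 and control had nearly the same mean, 157 ± 24.2 and 155 ± 16.9 CPM.

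The call of Srsf7 for day 14 against day 7 was close to the threshold and was lost in 15 of 27 other settings, with adjusted p-values from 0.00327 to 0.207. Among them were RLE scaling (adjusted p = 0.0510) and scaling by totals (0.0779). It was also lost on leaving out control library 1, 3 or 4, day 7 library 1, 2, 3, 4 or 5, or day 14 library 1, 3 or 4. The log2 change stayed between -0.60 and -0.34.

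Srsf6, which is known for regulating exon choice in many transcripts including tau, followed the same profile. It ran from 269 to 368 CPM in controls, from 368 to 517 CPM at day 7 with a median of 444, and from 295 to 359 CPM at day 14. Day 7 library 6, at 368.2 CPM, lay next to the highest control, at 368.1 CPM. The log2 change was 0.41 for day 7 against control (adjusted p = 0.0777) and -0.44 for day 14 against day 7 (adjusted p = 0.0680). For Srsf7 and Srsf6 all day 7 libraries were above all controls, which holds for 0.988% of all genes.

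Srsf3, the smallest SR protein, was at 314, 365, 268, 335, 334, 204 and 207 CPM at day 7 and 245, 206, 272, 187 and 164 CPM in controls (log2 change 0.43, adjusted p = 0.119). Its day 14 libraries held 167, 222, 188 and 195 CPM (log2 change against day 7 -0.58, adjusted p = 0.1001). Day 7 libraries 1, 2, 4 and 5 lay above every control, and libraries 3, 6 and 7 lay within the control range. Libraries 6 and 7 were the lowest of day 7. The same 2 libraries were the lowest of day 7 for Srsf5, Srsf6 and Srsf7 too. They are also the 2 day 7 libraries with Y-linked transcripts (421 and 433 CPM, at most 0.0666 CPM in the other 5) and with the most dividing cell markers (457 and 661 CPM). Y-linked transcripts were also present in control libraries 1 and 2 (391 and 362 CPM) and day 14 library 4 (352 CPM). The remaining control and day 14 libraries held at most 3.55 CPM, so each group mixed libraries with and without them. With Y-linked transcripts as a covariate, an alternative chosen after seeing the data, 1 member (Srsf7) was called higher at day 7 against control, with 81 of all genes, and 4 (Srsf7, Srsf6, Srsf3 and Sf3b1) were called lower at day 14 against day 7, with 446 of all genes, so calls rose over all genes too.

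Srsf5, among the most abundant SR proteins, was at 1123 ± 267 CPM in controls, 1145 ± 195 at day 7 and 841 ± 59.2 at day 14. Its log2 change was -0.42 against control (adjusted p = 0.166) and -0.45 against day 7 (adjusted p = 0.194). Srsf11 averaged 297 ± 30.5 CPM at day 14 and 366 ± 43.6 in controls (log2 change -0.30, adjusted p = 0.108). Srsf1, the founding SR protein, had 371 ± 114 CPM in controls, 354 ± 35.6 at day 7 and 329 ± 86.4 at day 14, and Srsf2 had 146 ± 16.5, 146 ± 21.7 and 135 ± 33.6 CPM in the same order. Neither differed beyond its spread. Srsf4, Srsf9 and Srsf10 had their highest group means in controls, at 119, 19.1 and 193 CPM, and Srsf12 stayed below 10 CPM in each library.

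**Figure D3:**
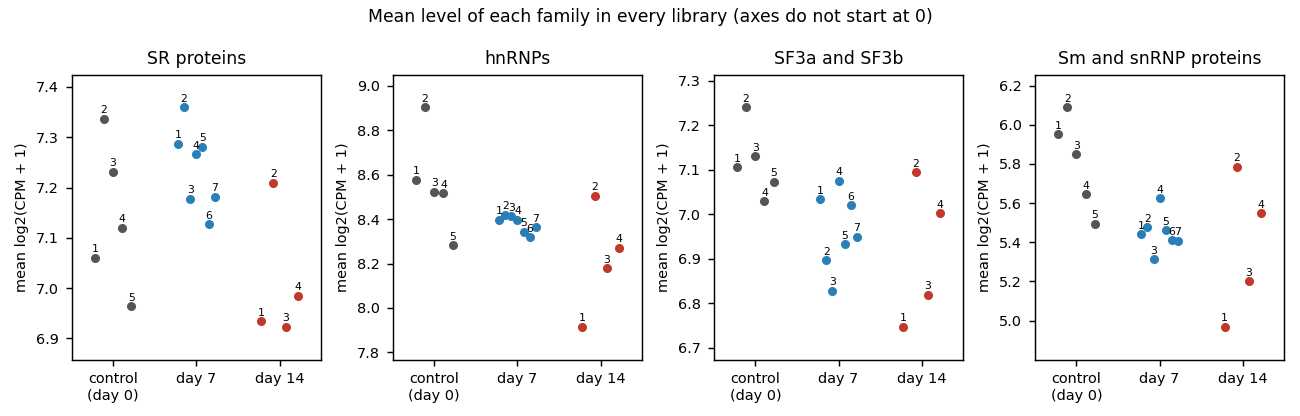
Mean log2(CPM + 1) over the members of each family (y axis, not from 0) in every library, numbered by replicate, from control (day 0) through day 7 to day 14. The SR protein panel has group means of 7.14 in controls, 7.24 at day 7 and 7.01 at day 14, while the hnRNP panel has 8.56, 8.38 and 8.22.

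The windows before the starts of Srsf7, Srsf3 and Srsf6 are shown because these 3 SR proteins had the day 7 profile. Capitals mark 1 match to CCGGAAG, a motif of ETS factors, in Srsf7, and 1 CCAAT box, read as ATTGG on the printed strand, in Srsf3. The Srsf6 window holds neither motif. Sequences are from RefSeq on GRCm38.p6, 250 bases before the start, at chr17:80207306-80207555 (minus strand), chr17:29032410-29032659 (plus strand) and chr2:162931258-162931507 (plus strand).
Srsf7: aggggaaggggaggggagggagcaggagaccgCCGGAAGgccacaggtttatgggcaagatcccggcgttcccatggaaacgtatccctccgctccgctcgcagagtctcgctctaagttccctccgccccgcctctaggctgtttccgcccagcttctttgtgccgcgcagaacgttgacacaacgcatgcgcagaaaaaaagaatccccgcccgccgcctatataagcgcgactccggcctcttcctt
Srsf3: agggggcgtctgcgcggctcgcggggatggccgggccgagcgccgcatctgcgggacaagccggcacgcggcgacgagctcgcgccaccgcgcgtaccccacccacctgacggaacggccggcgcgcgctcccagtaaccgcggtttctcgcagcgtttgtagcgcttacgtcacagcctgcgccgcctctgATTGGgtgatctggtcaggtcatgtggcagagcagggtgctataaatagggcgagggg
Srsf6: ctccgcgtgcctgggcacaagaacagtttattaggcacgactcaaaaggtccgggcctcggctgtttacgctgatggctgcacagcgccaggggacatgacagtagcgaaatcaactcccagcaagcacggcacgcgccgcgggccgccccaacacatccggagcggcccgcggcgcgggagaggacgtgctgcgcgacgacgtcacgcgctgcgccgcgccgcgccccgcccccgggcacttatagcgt
The Srsf3 window also holds CGCGAG and TATAAA, other motifs searched, which are not in capitals. No motif searched is in all 3 windows, which says only that these letters are absent there.

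Over the 44 members with a RefSeq promoter (250 bases before to 50 after the start), CCGGAAG was present on either strand in 15 (34.1%), where 15.4% of 13360 tested genes had it. CCAAT was present in 23 members (52.3%, with 41.9% of tested genes). CGCGAG was present in 16 (36.4%, with 19.8%). CACGTG, the E-box that Myc and its relatives bind, was present in 6 (13.6%, with 10.5%), and TATAAA in 7 (15.9%, with 10.8%). The median GC content was 61% over member windows and 59% over those of tested genes. These shares were not tested, and a gene with several starts counts once if any window holds the motif. Hnrnpc was not among the members with CCGGAAG, and Srsf7 was.

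The member level was set beside the share of reads outside gene models. The mean log2(CPM + 1) of the 48 members was 7.38, 7.62, 7.38, 7.29 and 7.14 in controls 1 to 5, lay between 7.16 and 7.28 at day 7, and was 6.82, 7.35, 6.98 and 7.14 in day 14 libraries 1 to 4. The share in those 4 was 69.8%, 54.4%, 66.3% and 62.3%, so in these 4 libraries the order of the member levels was the reverse of the order of the shares. The other groups kept this order only in part. Control libraries 1, 3, 4 and 5, at 47.1%, 48.7%, 51.4% and 51.7%, followed it, but control library 2 had the largest share of the controls, 56.7%, and the highest level. At day 7, library 4 had the smallest share, 54.6%, and the highest level, and library 3 the largest share, 68.0%, and the lowest level. Yet day 7 library 2, at 62.9%, stood at 7.25, above day 7 libraries 6 and 7, at 55.0% and 55.8%, which stood at 7.16 and 7.18. A link between share and level was not tested. Control library 5 was as low as day 14 library 4. With the share as a covariate, an alternative chosen after seeing the data, 35 of the 48 members lay below the all-gene median at day 14, in place of 47, and 27 at day 7, in place of 40. Without control libraries 1 and 2 the counts were 48 and 40, and 41 and 32 members had negative changes.

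**Figure D4:**
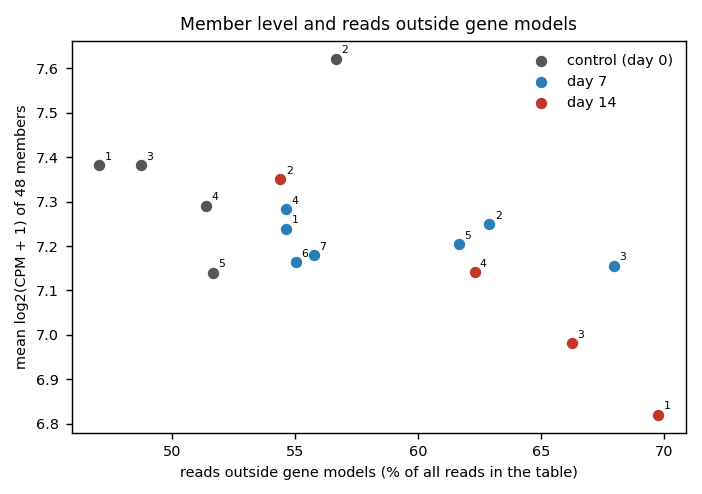
Mean log2(CPM + 1) of the 48 tested members (y axis, not from 0) against the percent of reads outside gene models (x axis), 1 point per library, numbered by replicate and coloured by group. Day 14 library 1 lies at the lower right (69.8%, 6.82) and control library 2 is the highest point (7.62).

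Single libraries also set the count of called members at day 14. Without day 14 library 2, 12 members were called lower, 8 of them hnRNPs and 4 snRNP genes, and over all genes 999. Without control library 5 it was 5 (Hnrnpc, Hnrnpl, Hnrnpu, Snrpd1 and Snrpf), and 557 over all genes. Without control library 2 it was 2 (Hnrnpc and Hnrnpf), and 519 over all genes, and without day 14 library 3 it was 0, and 23 over all genes. DESeq2 called 8 members lower, hnRNP and snRNP genes, and 652 of all genes, and limma-voom 6, hnRNPs, and 465 of all genes. At day 7 against control DESeq2 called 3 members higher (Srsf3, Srsf6 and Srsf7) and 9 lower, where edgeR called 0, and of 13157 genes 488 higher and 1087 lower. There edgeR without control library 5 called 1 member higher (Srsf7) and 5 lower, and over all genes 429 and 1026. Calls over all genes thus moved with those of the members.

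The other genes of splicing, 129 in 11 lists that hold none of the members, leaned the same way at day 14. Against control 109 of the 129 log2 changes were negative (42.3% over all genes), with a median of -0.24 (0.12 over all genes). The test passed 7 of them as lower (1.8% over all genes) and 0 as higher (1.33%). The 7 were Raly, Pcbp1, Puf60, U2af2, Rbm17, Txnl4a and Magoh. At day 7 against control 88 were negative (median -0.11), and at day 14 against day 7 98 were (median -0.10), where 43.8% and 40.6% of all genes were negative. In both comparisons 0 passed (0.0109% and 0.966% over all genes). At an unadjusted p below 0.05, 6 were higher and 31 lower at day 7 against control, where 8.43% and 12.7% of all genes were. At day 14 against day 7, 1 was higher and 21 lower, where 6.54% and 8.27% of all genes were.

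Of the 18 hnRNP relatives outside the symbol pattern, 2 passed as lower at day 14 (1.8% over all genes), and 12 had negative changes. Raly, close kin of hnRNP C, was at 110, 194, 131 and 142 CPM at day 14 and 198, 221, 206, 202 and 191 CPM in controls (log2 change -0.49, edgeR adjusted p = 0.0441). Only day 14 library 2 reached the lowest control. Pcbp1, a poly(C) binder like hnRNP K, was at 135 ± 30.3 CPM at day 14 and 190 ± 15.6 in controls (log2 change -0.49, adjusted p = 0.0485). Hnrpdl did not differ beyond its spread, at 374 ± 37.3 CPM at day 14 and 431 ± 62.7 in controls.

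Of the 13 factors that recruit U2 outside the pattern, 3 passed as lower at day 14 (1.8% over all genes), and 11 had negative changes. U2af2, the large subunit of U2AF that reads the polypyrimidine tract, was at 109, 177, 140 and 143 CPM at day 14 and 174, 215, 198, 193 and 203 CPM in controls (log2 change -0.47, adjusted p = 0.0442). Puf60, which binds the same tract, had 98.2 ± 15.1 CPM at day 14 and 131 ± 6.85 in controls (log2 change -0.42, adjusted p = 0.0442). Rbm17, known as SPF45, had 113 ± 15.3 and 150 ± 17.3 CPM (log2 change -0.41, adjusted p = 0.0490). For Puf60 and Rbm17 every day 14 library was below every control, as for 2.85% of all genes.

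In the later steps Txnl4a, a U5 protein of the tri-snRNP, fell by 0.37 on the log2 scale (131 ± 14.5 CPM at day 14, 170 ± 13.5 in controls, adjusted p = 0.0487). Magoh, of the exon junction complex, fell by 0.63 (51 ± 13.1 and 79 ± 16.2 CPM, adjusted p = 0.0471). All of the 14 genes of the Prp19 complex and catalytic activation had negative changes at day 14 (median -0.30), 11 of them at an unadjusted p below 0.05, and 0 passed. Over all genes 42.3% were negative and 11.8% were lower at that p. Its lead gene by p was Bcas2 (85.5 ± 17.4 and 125 ± 24 CPM, log2 change -0.55, adjusted p = 0.0526). Each of the 7 calls was lost in 17 to 23 of 27 other settings while keeping its sign, and that of Hnrnpc in 3 of 27.

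**Figure D5:**
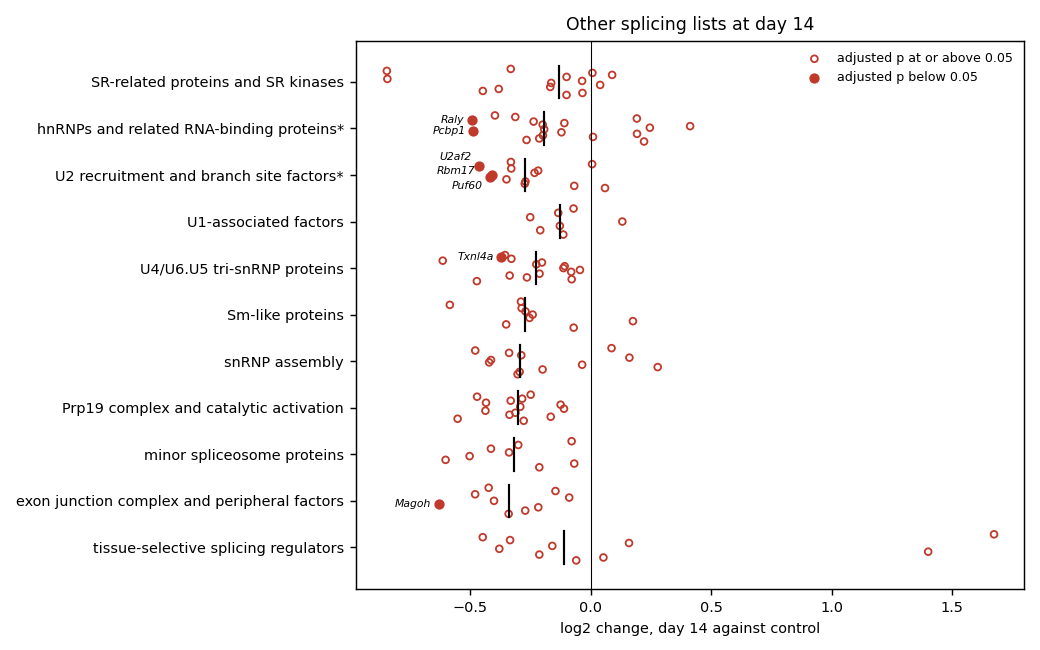
Log2 change at day 14 against control (x axis) of 129 genes in 11 other splicing lists, filled where the edgeR adjusted p was below 0.05, with the list median as a black bar; an asterisk marks lists of genes outside the symbol pattern. The 7 filled points all lie left of 0, from -0.63 (Magoh) to -0.37 (Txnl4a), and the 2 rightmost points are Rbfox2 and Esrp1, which averaged 2.19 and 1.03 CPM at day 14 and 0.685 and 0.39 CPM in controls.

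The SR-related proteins and SR kinases, 14 genes, had a positive median at day 7 (0.11, 4 of 14 negative) and were negative in 14 of 14 at day 14 against day 7 (median -0.28). None passed in either comparison, and at an unadjusted p below 0.05, 3 were higher at day 7 against control (8.43% over all genes) and 6 lower at day 14 against day 7 (8.27% over all genes). Clk4, a kinase that phosphorylates SR proteins, was at 119 ± 15.6 CPM at day 14 and 172 ± 33.7 at day 7 (log2 change -0.53, adjusted p = 0.0705). Son, a large SR-rich scaffold of nuclear speckles, was at 1129 ± 134 CPM at day 7 and 947 ± 57.7 in controls (log2 change 0.25, adjusted p = 0.135). Tra2a, an SR-like activator of exons, had the lowest log2 change of the 129 genes at day 14 against control, -0.85 (234 ± 86.4 and 421 ± 158 CPM, adjusted p = 0.0991).

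Among the genes of snRNP assembly, 12 tested, and of the Sm-like proteins, 9 tested, none passed. Strap, of the SMN complex, was at 111 ± 28.8 CPM in controls, 78.6 ± 7.14 at day 7 and 79.9 ± 14.9 at day 14 (log2 change at day 7 -0.50, adjusted p = 0.0777). Lsm6, of the Sm-like ring on U6, had 79.4 ± 21.7, 56.7 ± 5.05 and 53.0 ± 15.1 CPM in the same order (log2 change at day 14 -0.58, adjusted p = 0.0854). Like Snrpd1 and Snrpf, both had day 7 and day 14 means close to each other.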

How the data were processed

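The authors deposited raw counts (whole numbers of reads for each gene) for 16 libraries, which the labels' protocols say were made with a NuGEN kit from 100 ng of RNA. Tools named in the submitters' processing notes are HTSeq 0.6.1, cutadapt 1.8.1 and bcl2fastq 2.20.0.422, with the build mm10. The aligner, annotation and strand setting are not given in the sources used here. The 5 lines that name no gene stayed out of library sizes and tests.

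All 16 libraries entered 1 quasi-likelihood fit (R 4.3.3, edgeR 4.0.16, limma 3.58.1) after TMM scaling and a filter on low counts by group, filterByExpr, that kept 18430 genes and removed 5049. P-values were adjusted over all kept genes by Benjamini-Hochberg, with a threshold of 0.05. The standard error is the absolute log2 change over the square root of F. CPM values are TMM-scaled. The common biological coefficient of variation was 54.5%. The test was run on simulated counts to check the direction of changes put into them, which were larger than nearly all member changes. Whether it finds changes as small as those of most members was not tested. Figures used Matplotlib 3.10.9 (Python 3.11.15, NumPy 2.4.6, pandas 2.3.3).

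Members and lists were chosen with earlier results of these data known. Genes were named by rule: called members, the 3 highest and 3 lowest log2 changes at a mean of at least 10 CPM, a panel of 21 genes (20 in the table), and per list up to 4 called genes or the one with the smallest p. Further genes, and all genes shown by library, were picked after their values were seen. For 44 pairs of rule gene and comparison only levels, or nothing, is printed. Alternatives were other scalings, filters and tools (DESeq2 1.42.0, limma-voom), a replicate block, fits to 2 groups and left-out libraries; covariates for Y-linked transcripts and for reads outside gene models were added after seeing the data.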

Additional observations from a re-analysis of the deposited data

Results flagged for a closer look

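In 4 of 159 groups of libraries checked (3 groups each for 48 genes, members and other splicing genes, for the means of the 4 families and for the mean of all members; chance marks about 1 group in 20), 1 library lay far from the rest of its group. Hnrnpc stood at 630 CPM in control library 2 and at 297 to 377 CPM in the other controls. Hnrnpa0 stood at 249 CPM in day 14 library 2 and at 195 to 201 CPM in the other day 14 libraries. Clk4 stood at 142 CPM in day 14 library 2, where the others held 110 to 113 CPM. Son stood at 1045 CPM in control library 3, where the others held 892 to 934 CPM. Day 14 library 2 also had the smallest share of reads outside gene models of its group, and control library 2 the most neutrophil and dividing cell transcripts of all libraries. The part of either in these values was not tested.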

How the results depend on the processing

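Counts of called members were recomputed under 27 alternatives. No member was called higher at day 14 against control or against day 7 in any of them. For day 14 against control the count of members called lower, 1, became 8 with DESeq2 and 6 with limma-voom. It became 0 with a covariate for reads outside gene models, 0 with only the 2 groups and 0 to 12 on leaving out 1 library. Over all genes the calls lower were 331 in the main fit and 652, 465, 0 and 0 in the same order. They were 999 where 12 members were called, and 23 without day 14 library 3, where 0 were. For day 7 against control the count called higher, 0, became 1 with library totals and 2 with at least 10 counts in every library. It became 3 with DESeq2, 1 with a covariate for Y-linked transcripts and 0 to 1 on leaving out 1 library. Over all genes the calls higher were 2 in the main fit and 3, 70, 488 and 81 in the same order. Leaving out control library 5 or day 14 library 4 gave the 1 member, beside 429 and 18 of all genes. The count of members called lower, 0, became 1 with the stricter filter and 9 with DESeq2, and 0 to 5 on leaving out 1 library. Over all genes the calls lower were 0 in the main fit, 67 with that filter and 1087 with DESeq2. They were 1026 without control library 5, where 5 members were called. For day 14 against day 7 the count called lower, 1, became 0 with RLE, library totals, the replicate block and the covariate for outside reads. Over all genes the calls lower were 102 in the main fit and 72, 41, 19 and 46 in the same order. With DESeq2 the member count became 4 and with limma-voom 2. It became 4 each without controls 1 and 2, with the Y-linked covariate and with only the 2 groups. On leaving out 1 library it was 0 to 4. Beside these stood 336, 103, 450, 446 and 396 calls over all genes in the same order. Without control library 2, where 4 members were called, 318 of all genes were. Where a fit held fewer libraries, fewer support each estimate; in the other cases the cause was not tested.

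Replicate numbers did not pair the libraries: of 13 same-numbered pairs, correlations of deviations ran from -0.343 to 0.295, 3 were over 0.1 and 1 library correlated best with its own number. With the replicate block Hnrnpc still passed (-1.07, adjusted p = 0.0226), Srsf7 did not (-0.54, adjusted p = 0.103), and 25 genes were higher and 21 lower over all genes at day 14 against control.

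No log2 change printed for a single gene turned its sign, but rule genes that did turn were left out after this was seen. The absence of turned signs is therefore no check on direction. The median over members for day 14 against day 7, -0.08, became 0.06 with library totals, with 15 of 48 members negative. The genes printed were narrowed after the alternatives had been seen: of 44 other pairs of rule gene and comparison, none past the threshold (smallest adjusted p 0.126), 23 turned sign in at least 1 alternative. These include Srsf1, Srsf2, Hnrnpa1, Srsf6 and Srsf7 at day 14 against control. Depth limits Snrpn, Srsf12 and Snrpd2 most.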
